A study of Mus musculus with 9 samples.

Results

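Liver RNA of CCl4-treated mice that received the first lnc-Helf shRNA was compared with that of CCl4-treated mice that received a control virus. The comparison rests on 6 of the 9 libraries of the series, 3 from the NC + CCl4 group and 3 from the lnc-Helf-sh1# + CCl4 group, and takes in every gene with enough reads, 12914 of the 17305 genes in the table. All mice were male Balb/c, 8 weeks old, and were treated with CCl4 for 8 weeks. Those of the NC + CCl4 group received AAV8-NC and those of the lnc-Helf-sh1# + CCl4 group the same virus with shRNA1#, by the tail vein. The labels give the injection at 4 weeks after the first CCl4 dose and at 1e+12 pfu per mouse, whereas the methods of the paper give an earlier time and a lower dose. Livers of mice given either virus without CCl4 were not analysed here, so the comparison shows what differed under CCl4 and not what CCl4 itself changed. Each library was treated as 1 mouse, and the smallest two-sided p of an exact permutation test on 3 against 3 values is 0.1. The groups are called the control livers and the shRNA livers below.

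CCl4 is converted by Cyp2e1 of pericentral hepatocytes to a radical that kills these cells, and repeated doses draw monocytes into the liver, activate hepatic stellate cells and deposit matrix. AAV8 is an adeno-associated virus that enters mostly hepatocytes after tail vein injection, and an shRNA is a hairpin that cells cut into a short interfering RNA. lnc-Helf is a long noncoding RNA made from the locus of Fmo2, a flavin-containing monooxygenase gene. In hepatocytes the nuclear receptor PPARA turns on fatty acid oxidation and the Cyp4a omega-hydroxylases, and the transcription factors SREBP1c and ChREBP turn on the synthesis of fatty acids.

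The sequence that shRNA1# carries is shown because it defines the treatment and because its place decides which transcripts of the host gene it can match. The sense and antisense arms are in lower case and the loop is in capitals in the first line, and the target within the surrounding stretch of lnc-Helf is in capitals in the second.
shRNA1# hairpin: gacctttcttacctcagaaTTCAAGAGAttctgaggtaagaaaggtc
lnc-Helf around the target: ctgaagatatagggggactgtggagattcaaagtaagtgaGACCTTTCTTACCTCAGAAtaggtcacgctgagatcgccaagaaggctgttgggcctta
The target of 19 bases lies on the minus strand at chr1:162898147-162898165 (GRCm38), at position 196 of the 680 bases of the annotated lnc-Helf transcript, in its exon 2. It matched 1 transcript of the GENCODE M21 set, and 0 of its bases fall in exons of the coding Fmo2 transcripts. It lies 9 bases outside the nearest coding exon (chr1:162898174-162898311), within an intron of all 3 coding Fmo2 transcripts. The sense arm of the control hairpin, gttctccgaacgtgtcacg, matched 0 annotated mouse transcripts. The paper lists this control hairpin without the AAV8 label of the viral shRNA oligos, so its use in AAV8-NC is not certain. Of lnc-Helf itself, 26.3% overlaps coding Fmo2 exons.

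The libraries held 15967731 to 16816431 expected counts, and 6.81 to 11.6% of these came from Alb, the albumin gene. Levels are given in CPM, expected counts per 1000000 after scaling of the libraries by the TMM method. Hepatocyte genes dominated every library, with 167700 to 199790 CPM summed over 22 hepatocyte markers in the control livers and 178820 to 224420 in the shRNA livers. Of 17 markers of exocrine pancreas and gut, 2 had enough reads to be tested. In a principal component analysis of log2 CPM, shRNA replicates 1 and 2 lay at -37.6 and -30.6 on the first component (41.5% of the variance), away from the control livers at 15.4 to 30.6. shRNA replicate 3 stood apart from its group, at 3.75 on the first component and at 40.5 on the second (32.1%), where control replicate 3 lay at the other end (-35.5). Values of many gene lists and of some genes are therefore also given without that shRNA library. It was singled out from these same data, so values without it show its influence and are not separate evidence of a difference.

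**Figure D1:**
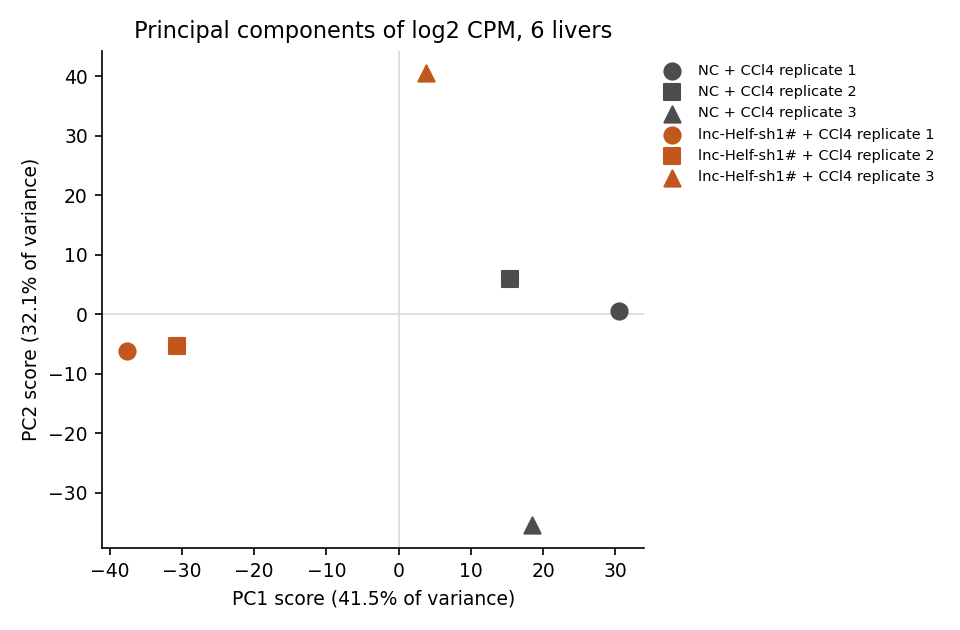
Scores of the 6 livers on the first and second principal components of log2 CPM over the genes tested, grey for NC + CCl4 and orange for lnc-Helf-sh1# + CCl4, with the percentage of variance on each axis. lnc-Helf-sh1# + CCl4 replicate 3 lies at 40.5 on the second component, and the other 2 livers of its group lie together at the left.

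Fmo2, whose locus holds lnc-Helf, was lower in every shRNA liver. It was measured at 232, 207 and 274 CPM in the control livers and at 111, 123 and 105 in the shRNA livers, so the groups did not overlap. The log2 fold change was -1.07 (standard error 0.13), and the adjusted p of 0.0661 from edgeR's quasi-likelihood test missed the threshold of 0.05. Over the alternative fits the adjusted p of Fmo2 ran from 3.38e-10 to 0.244. The table holds 1 value per gene, and whether reads of lnc-Helf are counted in it is not known, so the level of lnc-Helf itself was not measured here. Among the other members of the family, Fmo5, which had the most reads, stood at 1320, 1490 and 1880 against 1830, 1790 and 1660 CPM, and Fmo1 and Fmo4 had log2 fold changes of 0.16 and 0.07, with overlapping groups for all 3.

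Across all genes, 1 passed the threshold of the study, a fold change above 2 with p under 0.05 after adjustment, which is 0.00774% of those tested. It was Cyp4a14, and it fell. The count depended on the tool and on the libraries, since DESeq2 called 23 genes higher (0.178%) and 184 lower (1.43%) on the same 6 libraries. edgeR called 80 higher and 178 lower without shRNA replicate 3 (0.609% and 1.36% of the genes tested then). Leaving out control replicate 2 gave 4 higher and 21 lower, and leaving out any of the other 4 libraries gave 0 or 1 call. With p under 0.05 before adjustment and the same fold change, 62 genes were higher (0.48%) and 412 lower (3.19%). At that p with any fold change, 1233 were higher (9.55%) and 1615 lower (12.5%), or 13.0% and 14.5% without shRNA replicate 3. Members of gene lists are counted below at this last threshold and are to be read against these shares and against the median log2 fold change of all genes tested, -0.001. With any other library left out, the share over all genes at this threshold is not given. Such list counts therefore show only how far a count moved. At an unadjusted p with a fold change above 2, those fits had 34 to 88 genes higher and 293 to 613 lower. The groups did not overlap, in either direction, for 28.0% of the genes (13.6% higher and 14.4% lower).

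Cyp4a14 encodes a fatty acid omega-hydroxylase and is a classical PPARA target in rodents. It stood at 293, 141 and 379 CPM in the control livers and at 6.36, 9.75 and 11.4 in the shRNA livers. The lowest control liver lay more than 10 times above the highest shRNA liver, the log2 fold change was -4.88 (standard error 0.41, a fold of 29.5), and the adjusted p was 0.0441 from edgeR. The adjusted p ran from 3.5e-21 to 0.244 over the alternatives, while the log2 fold change stayed between -5.19 and -4.56 with any library left out. Cyp4a14 still passed without control replicate 2 or shRNA replicate 3 and missed the threshold without any of the other 4. Its neighbours in the gene family showed the same order of groups. Cyp4a10 was measured at 541, 337 and 762 against 16.7, 26.1 and 51.7 CPM (log2 fold change -4.12, standard error 0.48, adjusted p = 0.0661 from edgeR), Cyp4a31 at 8.52, 10.8 and 18 against 1.53, 2.25 and 0.681 (-3.06, adjusted p = 0.0661), and Cyp4a32 at 132, 106 and 154 against 40.9, 51.9 and 37.2 (-1.59, adjusted p = 0.0661). Reads of 50 bases from such near-identical genes can be shared among them by the counting, so the share of each member is uncertain. Of the 14 Cyp4 genes tested, 5 were lower and 3 higher at an unadjusted p under 0.05, and the median was -0.06. The family thus held members in both directions.

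The same direction ran through the genes of fatty acid oxidation and PPARA targets, a list that includes Cyp4a14. Of 34 members tested, 20 were lower and none was higher at an unadjusted p under 0.05, with a median log2 fold change of -0.34, and 22 had groups that did not overlap in the lower direction. The count stayed between 15 and 19 with any library left out, and 1 member was higher without shRNA replicate 3. Acot1, an acyl-CoA thioesterase, stood at 19.1, 15.9 and 21 against 7.89, 7.69 and 4.64 CPM (log2 fold change -1.47, standard error 0.21, adjusted p = 0.0661 from edgeR). Fgf21, the fasting hormone of the liver, stood at 6.06, 7.31 and 3.20 against 1.21, 1.25 and 1.36 CPM (-2.11, standard error 0.33, adjusted p = 0.0788). Angptl4, an inhibitor of lipoprotein lipase, stood at 162, 142 and 129 against 56.4, 93.7 and 72.6 CPM (-0.96, adjusted p = 0.0926). Each of these had every shRNA liver below every control liver. Cpt1a, which admits fatty acids to mitochondria, Ehhadh of the peroxisomal pathway and Pdk4, the kinase that turns off pyruvate dehydrogenase, had log2 fold changes of -0.63, -0.67 and -1.01 and were named after their values were seen. Ppara itself, also named afterwards, was 209, 240 and 247 against 201, 221 and 186 CPM, with overlapping groups (log2 fold change -0.20, adjusted p = 0.338 from edgeR).

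**Figure D2:**
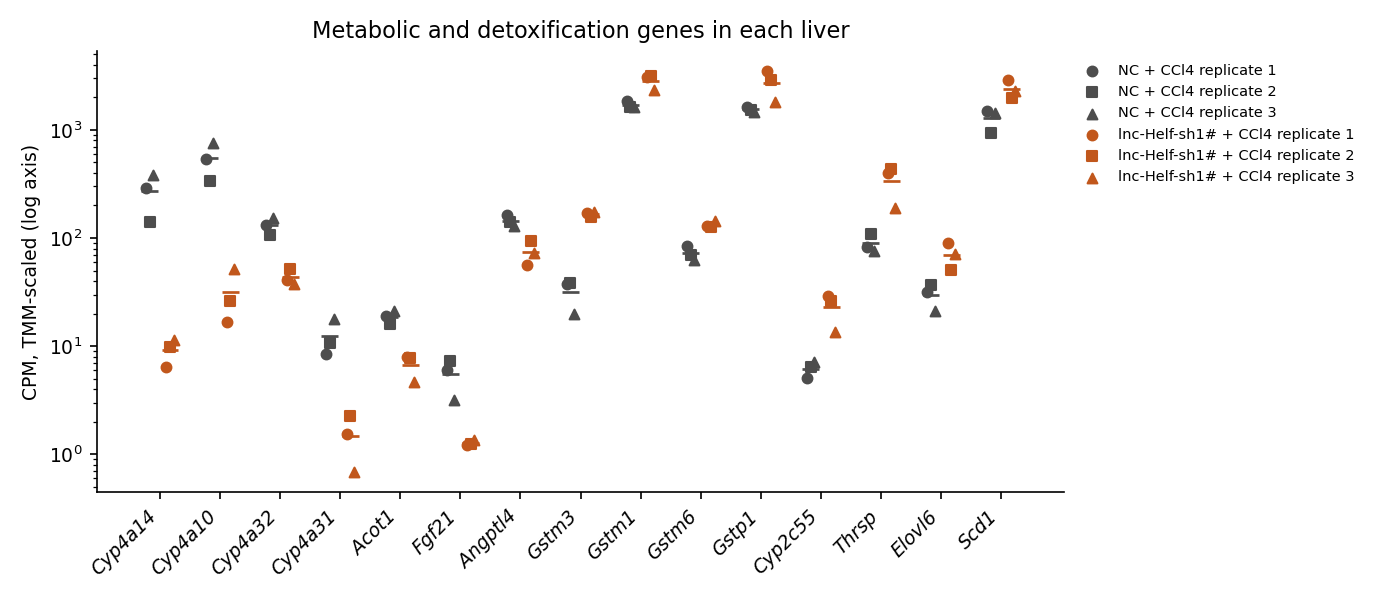
CPM of 15 metabolic and detoxification genes in each of the 6 livers on a log axis, grey for NC + CCl4 and orange for lnc-Helf-sh1# + CCl4, with a bar at each group's mean. Cyp4a14 stands at 6.36 to 11.4 in the shRNA livers against 141 to 379 in the controls, and Gstm3 at 158 to 175 against 19.8 to 38.3.

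Genes of fatty acid synthesis differed in the opposite direction. Of 28 lipogenic genes tested, 12 were higher and none lower at an unadjusted p under 0.05, with a median log2 fold change of 0.38 (10 to 16 higher with any library left out, and 1 lower without control replicate 3). Thrsp, the thyroid hormone responsive spot 14 protein of lipogenic tissues, was measured at 82.6, 110 and 75.5 CPM in the control livers and at 400, 431 and 191 in the shRNA livers (log2 fold change 1.93, standard error 0.31, adjusted p = 0.0788 from edgeR). shRNA replicate 3 was the lowest of its group and still lay above every control. Elovl6, which lengthens palmitate, stood at 31.7, 37.0 and 21.3 against 90.2, 50.4 and 70.6 CPM (1.23, adjusted p = 0.0966), and Scd1, the stearoyl-CoA desaturase, at 1500, 939 and 1430 against 2920, 1970 and 2300 (0.89, adjusted p = 0.108). Me1, which supplies NADPH, and Pklr, the liver pyruvate kinase, had log2 fold changes of 0.78 and 0.84 with groups that did not overlap (adjusted p = 0.0865 and 0.0894 from edgeR). Fasn, the fatty acid synthase, and Srebf1, the gene of SREBP1, had 0.94 and 0.82 and were named after their values were seen. Srebf1 overlapped, at 107, 163 and 168 against 367, 252 and 155 CPM. Angptl8, an insulin-responsive liver hormone, was 17.9, 31.2 and 51.1 against 122, 130 and 48.4 CPM, with shRNA replicate 3 among the controls (log2 fold change 1.58, adjusted p = 0.128 from edgeR). Without that liver its log2 fold change was 1.93.

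Igfbp1, an IGF-binding protein whose gene is shut off by insulin, stood at 27.8, 45.9 and 13.9 against 9.35, 5.12 and 6.37 CPM (log2 fold change -2.07, standard error 0.43, adjusted p = 0.0965 from edgeR). Irs2, the insulin receptor substrate, had a log2 fold change of -1.18 (5.82, 8.46 and 9.36 against 2.16, 2.81 and 5.45 CPM, adjusted p = 0.133). Igfbp2, of the growth hormone and IGF list, had -0.87, at 432, 382 and 463 against 254, 267 and 175 CPM (adjusted p = 0.0926). None of the 3 overlapped between the groups. The growth hormone and IGF list had 2 of 22 genes higher and 4 lower, with a median of -0.15, near the shares over all genes. The list of the insulin receptor pathway and gluconeogenesis as a whole had a median of 0.04, with 1 of 21 genes higher and 5 lower at an unadjusted p under 0.05, so most of its members did not share the difference, and 6 were higher without shRNA replicate 3. Depp1, named for its induction by progesterone in the decidua, was measured at 39.4, 44.3 and 19.3 against 4.96, 2.31 and 19.1 CPM, with shRNA replicate 3 just under the lowest control (log2 fold change -1.96, adjusted p = 0.159 from edgeR). Without that liver its log2 fold change was -3.23.

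Glutathione transferases, which conjugate electrophiles to glutathione, were higher. Of 22 tested, 10 were higher and none lower at an unadjusted p under 0.05 (8 to 14 higher with any library left out, and 2 lower without control replicate 2), and the median log2 fold change was 0.38. Gstm3 had the second smallest p of all genes, at 37.2, 38.3 and 19.8 CPM in the control livers and 169, 158 and 175 in the shRNA livers (log2 fold change 2.40, standard error 0.24, a fold of 5.27, adjusted p = 0.0661 from edgeR). The 3 shRNA livers were alike, and the adjusted p ran from 5.15e-22 to 0.244 over the alternatives. Gstm1, with the most reads of the mu class, stood at 1840, 1640 and 1630 against 3110, 3130 and 2360 CPM (0.75, adjusted p = 0.0926). Gstm6, Gstm4 and Gstm7 had log2 fold changes of 0.88, 0.69 and 0.66, and Gstm2, named after its values were seen, of 0.97, all without overlap. Gstp1 of the pi class was measured at 1640, 1540 and 1480 against 3520, 2880 and 1820 CPM (0.82, adjusted p = 0.123), and Gsta1 of the alpha class at 22, 17.6 and 16.1 against 57.3, 50.0 and 24.5 (1.24, adjusted p = 0.106). Genes of 1 class share long stretches of sequence, and reads may be shared among them. For Gsta1 and Gstp1 the third shRNA liver lay closest to the controls.

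Among the cytochromes P450 of families 1 to 3, members differed in both directions, with 11 of 45 higher and 6 lower at an unadjusted p under 0.05 and a median of 0.01. These counts were 7 and 7 without control replicate 1 and 14 and 10 without shRNA replicate 3. Cyp2e1, the enzyme that activates CCl4, was lower, at 5630, 4600 and 5560 CPM in the control livers and 2610, 3600 and 3970 in the shRNA livers (log2 fold change -0.63, standard error 0.18, adjusted p = 0.127 from edgeR). Cyp2c37 was 134, 139 and 230 against 69.9, 60.5 and 94.1 CPM (-1.17, adjusted p = 0.0985), and Cyp1b1, a P450 found mostly outside hepatocytes, 21.7, 14.5 and 29.9 against 7.57, 5.25 and 7.30 (-1.71, adjusted p = 0.0799). On the higher side, Cyp2c55 stood at 5.04, 6.39 and 7.11 against 28.9, 26.4 and 13.6 CPM (1.89, standard error 0.29, adjusted p = 0.0696), and Cyp3a11, the main drug-metabolizing P450 of mouse liver, at 6530, 6800 and 6630 against 9890, 8830 and 9670 (0.51, adjusted p = 0.103). All 5 genes had groups that did not overlap. Slc22a7, an organic anion transporter, was higher at 11.4, 14.6 and 9.83 against 27.0, 25.7 and 35.2 CPM (1.29, standard error 0.18, adjusted p = 0.0661). Ugdh, which makes the sugar donor of glucuronidation, and the glucuronosyltransferase gene Ugt2b35 had log2 fold changes of 0.72 and 0.81 without overlap.

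Sex-biased liver genes are set by the pulses of growth hormone, and Cyp4a14 and Fmo2 are members of the female-biased list used here. Of 29 female-biased genes tested, 11 were lower and 1 was higher at an unadjusted p under 0.05, with a median log2 fold change of -0.65 (7 lower without control replicate 3 and 8 to 13 without any other library). Of 28 male-biased genes, 10 were higher and none lower, with a median of 0.46 (6 higher without control replicate 1, 7 to 14 without any other library, and 1 lower without control replicate 2 or shRNA replicate 3). Nudt7, a peroxisomal CoA diphosphatase on the latter list, stood at 72.7, 90.8 and 53.6 against 161, 197 and 112 CPM (log2 fold change 1.11, adjusted p = 0.101 from edgeR). Cish, a feedback inhibitor that growth hormone induces through STAT5, was 11.6, 13.9 and 12.3 CPM in the control livers and 51.3, 46.4 and 10.8 in the shRNA livers (1.52, adjusted p = 0.15). It was high in 2 shRNA livers and at the control level in the third, and its log2 fold change was 1.96 without that liver.

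Matrix genes were lower in the shRNA livers, and control replicate 3 had the highest levels of many of them. Of 25 collagen chains, 11 were lower and none higher at an unadjusted p under 0.05, with a median log2 fold change of -0.50. Of 33 matrix proteases, inhibitors and crosslinking enzymes, 16 were lower and 1 higher (median -0.50), of 30 proteoglycans and glycoproteins 16 were lower and none higher (median -0.61), and of 14 laminins and basement membrane genes 8 were lower and none higher (median -0.49). Without control replicate 3 these counts were 6, 10, 8 and 5, with medians of -0.30, -0.37, -0.34 and -0.32. The laminin list also counted 5, and the proteoglycan list 9, without shRNA replicate 3, and the protease list counted 10 without shRNA replicate 2. Col6a5, a chain of microfibrillar collagen VI, stood at 12.1, 6.67 and 22.7 against 3.43, 4.31 and 2.85 CPM (log2 fold change -1.97, standard error 0.43, adjusted p = 0.0986 from edgeR), and Col6a2 at 46.5, 38.9 and 93.4 against 30.0, 27.4 and 15.3 (-1.30, adjusted p = 0.127). Fbn1, the fibrillin of elastic microfibrils, was 14.3, 16.7 and 23.5 against 9.03, 8.75 and 9.28 CPM (-1.01, standard error 0.19, adjusted p = 0.0926), and Fbln2, a fibulin, 14.9, 5.70 and 16.8 against 2.67, 5.06 and 2.35 (-1.89, adjusted p = 0.106). Dcn, decorin, had -0.61 and the laminin chain gene Lamc3 -1.53, again without overlap.

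Profibrotic genes, several of which the study followed by other assays, differed to different degrees. Mmp2, a gelatinase, stood at 23.0, 30.8 and 48.2 against 18.3, 16.2 and 9.65 CPM (log2 fold change -1.21, standard error 0.31, adjusted p = 0.118 from edgeR). Tgfb1, the profibrotic cytokine, was 32.3, 26.9 and 31.7 against 18.4, 19.8 and 24.1 CPM (-0.55, adjusted p = 0.106), and Tgfbr2, its type II receptor, 59.5, 53.3 and 64.7 against 38.4, 35.0 and 38.9 (-0.66, standard error 0.10, adjusted p = 0.0666). These 3 did not overlap between the groups. Col1a1, the main chain of collagen I, did overlap, at 163, 109 and 238 against 133, 121 and 46.4 CPM (-0.77, adjusted p = 0.309), and its log2 fold change was -0.41 without shRNA replicate 3. Acta2, which encodes α-SMA, was 7.80, 2.82 and 8.29 against 2.54, 4.62 and 1.92 CPM (-1.05, adjusted p = 0.233), and Timp1, an inhibitor of metalloproteinases, 9.96, 3.62 and 9.36 against 3.82, 2.5 and 4.39 (-1.10, adjusted p = 0.17), both with overlap.

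Markers of the cells that make matrix gave different pictures. The 20 markers of hepatic stellate cells had a median log2 fold change of -0.10, with 5 lower and none higher at an unadjusted p under 0.05, 3 lower without control replicate 1, and 2 lower without control replicate 3 or without shRNA replicate 3. Their summed level was 622 to 944 CPM in the control livers and 507 to 705 in the shRNA livers. Des, desmin, stood at 8.22, 6.62 and 8.06 against 5.09, 6.69 and 4.08 CPM, and Pdgfra, the PDGF receptor alpha, at 20, 28.3 and 42.1 against 19.1, 14.6 and 14.6 (log2 fold change -0.90, adjusted p = 0.128 from edgeR). Portal fibroblast and mesothelial markers were lower by far, with 10 of 14 lower, none higher and a median of -1.08 (7 lower without shRNA replicate 3, and 6 with a median of -0.66 without control replicate 3). Their summed level was 100 to 238 CPM in the controls and 47.8 to 82.8 in the shRNA livers. Upk3b, a mesothelial gene of the list, was 15, 12.5 and 39.4 against 8.91, 8.19 and 5.01 CPM (log2 fold change -1.60, adjusted p = 0.127 from edgeR). Outside the list, Muc16, a mesothelial mucin, was 10.7, 9.15 and 28.5 against 4.58, 4.62 and 3.28 CPM (-1.95, standard error 0.44, adjusted p = 0.104). Adgrd1, an adhesion receptor gene, and Angptl7, a secreted angiopoietin-like factor, had -1.73 and -1.63, and control replicate 3 was the highest for all 4 genes. In bulk tissue, fewer cells of a type and less RNA per cell cannot be told apart, and how far the amount of capsule or portal tissue in each piece of liver differed was not tested.

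**Figure D3:**
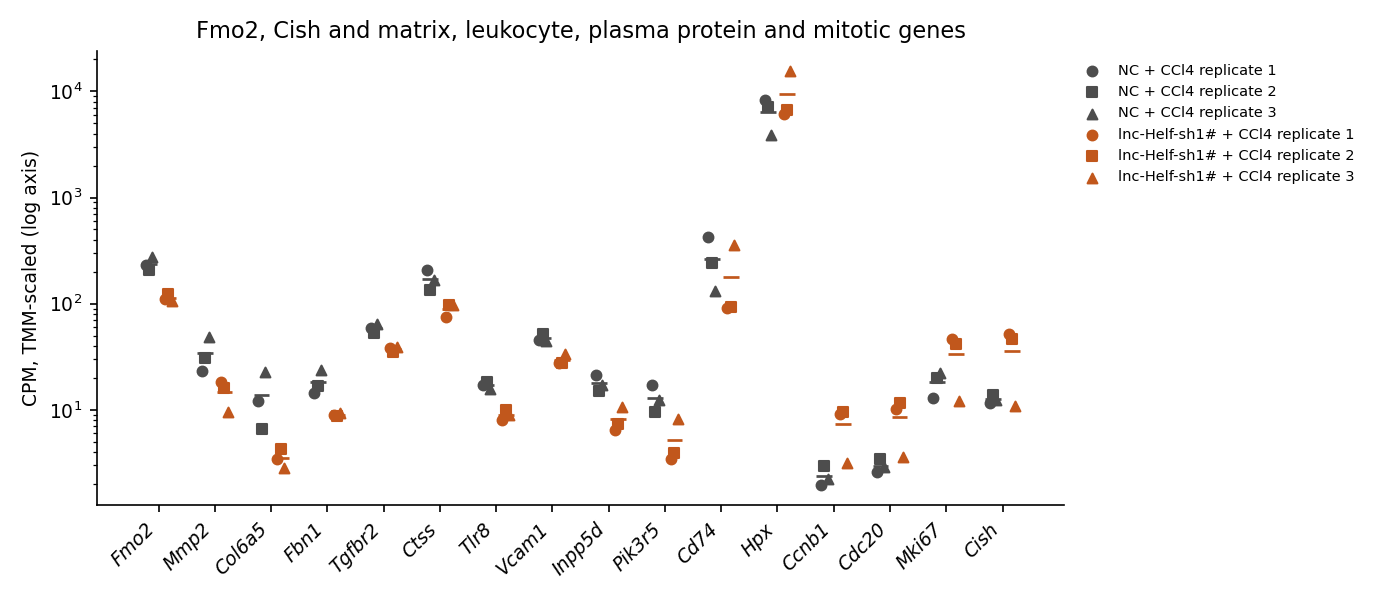
CPM of Fmo2, Cish and 14 matrix, leukocyte, plasma protein and mitotic genes in each of the 6 livers on a log axis, grey for NC + CCl4 and orange for lnc-Helf-sh1# + CCl4, with a bar at each group's mean. For Cd74, Hpx, Mki67 and Cish the third shRNA liver (triangle) lies away from the other 2, for example at 355 against 90.8 and 94.1 for Cd74.

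Genes of monocytes and macrophages were lower. Of the 32 monocyte and recruited macrophage markers, none was higher and 16 were lower at an unadjusted p under 0.05, with a median log2 fold change of -0.85. The count was 25 without shRNA replicate 3 and 13 to 18 without any other library. Relative to the mean of the controls, the markers lay at -1.05, -0.78 and -0.68 in the 3 shRNA livers (median log2 CPM of the members), below the controls at -0.02 to 0.22. Ctss, cathepsin S, stood at 206, 136 and 169 against 74.5, 97.4 and 96.6 CPM (log2 fold change -0.93, standard error 0.18, adjusted p = 0.0926 from edgeR). Tlr8, an endosomal receptor for RNA, was 17.3, 18.5 and 15.8 against 8.08, 9.94 and 8.97 CPM (-0.93, standard error 0.13, adjusted p = 0.0661), and Tlr13 and Tlr7, other endosomal receptors, had -1.02 and -0.86. All of these were without overlap. Lyz2, the lysozyme of myeloid cells, was 806, 390 and 727 against 244, 380 and 328 CPM (-1.01, adjusted p = 0.124), and Ccl6, a chemokine, 173, 44.8 and 123 against 19.7, 43.9 and 39.2 (-1.73, adjusted p = 0.127), where control replicate 2 lay next to the shRNA livers. Ccr2, the receptor that brings monocytes from the blood, overlapped at 21.6, 17.6 and 12.1 against 6.30, 6.75 and 12.3 CPM (-1.02, adjusted p = 0.133).

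Adhesion and signaling genes of leukocytes lay in the same direction. Of 17 integrins and adhesion molecules, 9 were lower and none higher at an unadjusted p under 0.05 (median log2 fold change -0.66), of 33 chemokines and receptors 10 (median -0.63), and of 24 Fc receptors and ITAM adaptors 8 (median -0.68). Without shRNA replicate 3 these counts were 13, 18 and 20. Without control replicate 1 they were 5, 5 and 5. The integrin list also counted 6 and 5 without shRNA replicates 1 and 2, and the chemokine and Fc receptor lists 6 and 5 without replicate 1. Vcam1, the adhesion molecule that binds leukocytes, stood at 45.4, 52.2 and 44.2 against 27.7, 27.7 and 33.4 CPM (log2 fold change -0.68, standard error 0.11, adjusted p = 0.0865 from edgeR), and its ligand chain Itga4 at 22.7, 20.5 and 21.1 against 9.80, 9.62 and 15.8 (-0.87, adjusted p = 0.104). Inpp5d, the phosphatase SHIP1 of blood cells, was 21.5, 15.2 and 17.1 against 6.49, 7.37 and 10.6 CPM (-1.13, adjusted p = 0.0926), and Tyrobp, the adaptor DAP12, 53.9, 37.6 and 45.8 against 23.2, 28.4 and 28.8 (-0.77, adjusted p = 0.0926). Selplg, the selectin ligand, and Syk, the ITAM kinase, had -0.99 and -0.92, and these 6 genes were without overlap. Itgam, which encodes CD11b, overlapped, at 96.9, 18.6 and 50.8 against 5.85, 18.2 and 28.2 CPM (-1.67, adjusted p = 0.199), as did Itgb2, its partner chain, named after its values were seen (-1.34). Without shRNA replicate 3, Itgam had -2.19 and Itgb2 -1.95.

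Not all macrophage genes followed. The 19 resident Kupffer cell markers had a median log2 fold change of -0.25, with 2 lower and 1 higher at an unadjusted p under 0.05. Clec4f, which marks Kupffer cells, stood at 40.7, 53.7 and 42.7 against 50.8, 53.7 and 45.2 CPM (0.13, standard error 0.13, adjusted p = 0.581 from edgeR). Adgre1, which encodes F4/80, was 57.0, 73.0 and 30.6 against 15.3, 21.2 and 73.8 CPM (-0.54, adjusted p = 0.606), and C1qa 96.5, 93.7 and 79.8 against 60.4, 55.2 and 87.9 (-0.41, adjusted p = 0.235). In both, shRNA replicate 3 lay within or above the controls, and without it 10 of the Kupffer markers were lower, against 0 to 3 without any other library. Ccl2, the monocyte chemokine, was 4.38, 5.87 and 5.03 against 2.80, 2.06 and 3.53 CPM (-0.86, adjusted p = 0.127). Tnf (3.12, 2.76 and 1.48 against 0.509, 0.437 and 2.04 CPM) and Il1b (7.14, 9.90 and 5.92 against 4.01, 3.62 and 14.4) overlapped, with the third shRNA liver the highest of its group in both, and rest on few reads.

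PI3K subunits of leukocytes were listed because the study assayed Pik3r5, a regulatory subunit of the PI3K gamma complex. Pik3r5 stood at 17, 9.61 and 12.4 CPM in the control livers and at 3.43, 3.94 and 8.23 in the shRNA livers, without overlap (log2 fold change -1.32, standard error 0.35, adjusted p = 0.121 from edgeR). Over the alternative fits its adjusted p ran from 0.00923 (DESeq2) to 0.294. Without shRNA replicate 3 its log2 fold change was -1.81. Pik3r6, the other regulatory subunit, was 3.24, 2.53 and 1.78 against 1.27, 0.75 and 1.18 CPM (-1.23, adjusted p = 0.121), and Pik3ip1, an inhibitor, 2.40, 1.73 and 2.90 against 1.14, 1.44 and 0.866 (-1.02, adjusted p = 0.136). The catalytic subunits Pik3cg (-0.66) and Pik3cd (-0.61) overlapped, and the adaptor Pik3ap1 was highest in shRNA replicate 3, at 76.1, 73.6 and 67.1 against 59.7, 61.1 and 130 CPM. Of these 6 genes 3 were lower at an unadjusted p under 0.05. Leaving out shRNA replicate 3 made it 6, and leaving out any other library left it at 3. The leukocyte markers above were lower in the same livers, and their part in these values was not tested. The 36 broadly expressed PI3K, AKT and mTOR genes had a median of -0.08, with 6 higher and 4 lower at that p (1 to 3 higher without any library except shRNA replicate 3), and Rictor, a subunit of mTOR complex 2, was lower (22.6, 24.4 and 26.5 against 17, 16.9 and 19.5 CPM, -0.46). Ptbp1, an RNA-binding protein that the study also assayed, was 143, 140 and 162 against 161, 161 and 161 CPM (0.12, standard error 0.09, adjusted p = 0.481).

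The third shRNA liver parted from the other 2 in many gene lists. Toll-like receptors lay at 0.01 in it against -0.90 and -0.69, inflammasome and cytokine genes at 0.01 against -0.88 and -0.89, T and NK cell markers at 0.05 against -0.90 and -0.81, and Kupffer cell markers at 0.12 against -0.57 and -0.47 (median log2 CPM of the members relative to the control mean). The controls lay at -0.12 to 0.06 for the Toll-like receptors, -0.10 to 0.15 for the inflammasome list and -0.16 to 0.16 for the Kupffer markers. For T and NK cell markers the controls lay at 0.46, 0.26 and -0.73, so control replicate 3 was near the 2 low shRNA livers. Interferon-stimulated genes lay at 0.18 in shRNA replicate 3 against -0.53 and -0.72, and at 0.28, 0.31 and -0.59 in the controls. Of 40 such genes 4 were lower and 1 higher at an unadjusted p under 0.05, while 17 were lower without shRNA replicate 3 and 17 without control replicate 3.

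Acute phase genes, which hepatocytes make under inflammatory cytokines, lay at 0.92 in shRNA replicate 3 against -0.24 in each of the other 2 and -0.30 to 0.16 in the controls on the same scale. Hpx, hemopexin, stood at 15400 CPM there against 6160 and 6690, and at 8240, 7160 and 3880 in the controls. C3, complement component 3, was 12700, 13200 and 12900 in the controls and 8610, 9790 and 19600 in the shRNA livers. The median log2 fold change of the 33 acute phase genes was thus 0.30 with that liver, with 3 higher and 4 lower at an unadjusted p under 0.05, and -0.26 without it, with 1 higher and 10 lower. Saa3, the serum amyloid made also by macrophages, did not follow, at 242, 187 and 357 against 150, 109 and 122 CPM (log2 fold change -1.04, adjusted p = 0.105 from edgeR). Genes of MHC class II presentation lay at -0.08 in that liver, against -1.16 and -1.14 in the other 2 and -0.65 to 0.57 in the controls. Cd74, the invariant chain, was 422, 243 and 131 CPM in the controls and 90.8, 94.1 and 355 in the shRNA livers, and 2 of 13 class II genes were lower at that p, or 9 without the third shRNA liver and 9 without control replicate 3.

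Mitotic genes were higher in 2 of the 3 shRNA livers. The 43 genes of mitosis and G2 phase lay at 1.44 and 1.25 in shRNA replicates 1 and 2 and at -0.21 in replicate 3, against -0.25 to 0.18 in the controls. Ccnb1, cyclin B1, stood at 1.98, 2.99 and 2.25 CPM in the control livers and 9.16, 9.62 and 3.16 in the shRNA livers (log2 fold change 1.60, standard error 0.42, adjusted p = 0.118 from edgeR). Cdc20, an activator of the anaphase-promoting complex, was 2.58, 3.45 and 2.90 against 10.2, 11.7 and 3.59 CPM (1.51, adjusted p = 0.123), and Cdca3 and Hmmr had 1.37 and 1.69. Each had the third shRNA liver just above the controls. Mki67 did not, at 13.0, 19.9 and 22.4 against 46.7, 41.9 and 12.0 CPM (0.86, adjusted p = 0.304). The median log2 fold change of the list was 1.00, with 18 of 43 higher and none lower at an unadjusted p under 0.05. Without shRNA replicate 3 it was 1.37, with 39 higher. The count was 6 without control replicate 1 or without shRNA replicate 1 or 2, and 11 without control replicate 3. The 37 genes of DNA replication had 6 higher (median 0.48), 28 without the third shRNA liver (median 0.72) and 2 to 9 without any other liver. Ccnd1, cyclin D1, was higher in all 3, at 43.3, 38.8 and 29.1 against 66.3, 77.8 and 45.5 CPM (0.77, adjusted p = 0.126), and Pcna overlapped (0.37).

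**Figure D4:**
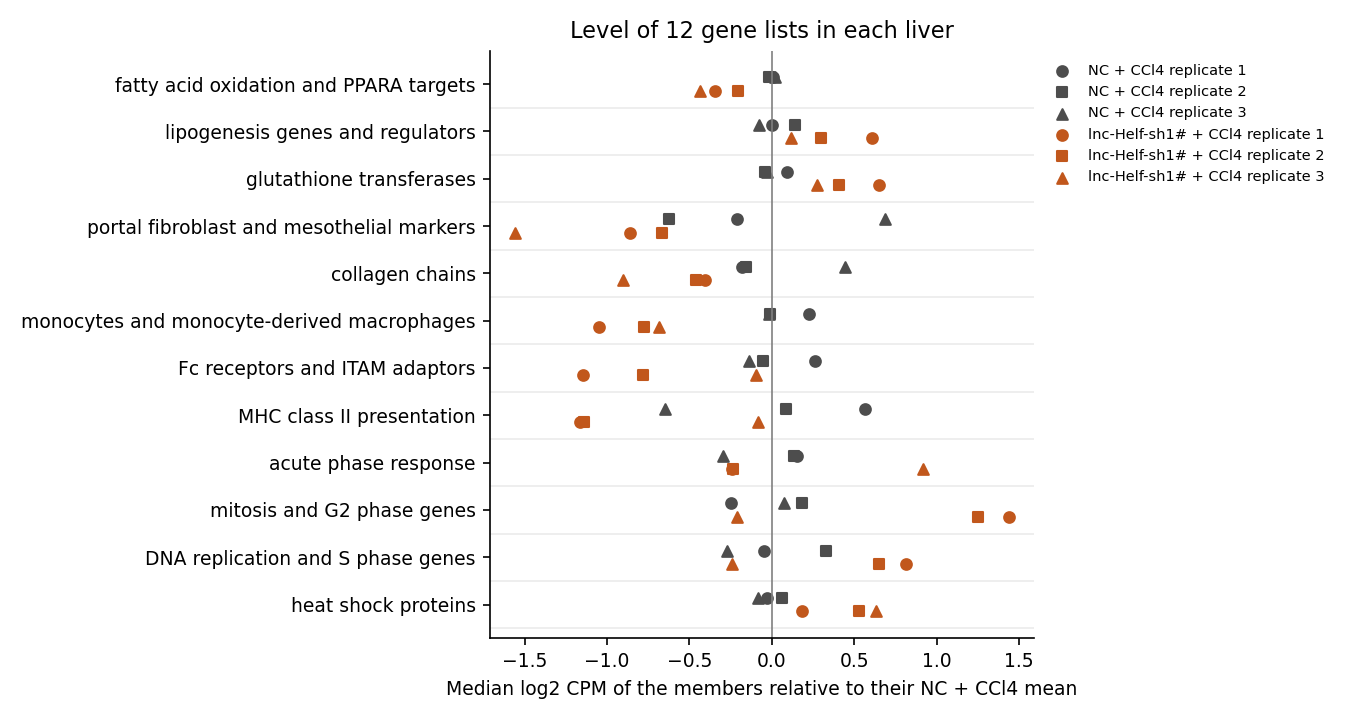
Level of 12 gene lists in each of the 6 livers, as the median log2 CPM of the members relative to their mean in the NC + CCl4 livers, which stand in grey above the lnc-Helf-sh1# + CCl4 livers in orange. The third shRNA liver lies with the controls for mitosis (-0.21) and MHC class II (-0.08) and above them for the acute phase (0.92).

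Many heat shock protein genes were higher in the shRNA livers. Of 20 heat shock protein genes, 12 were higher and none lower at an unadjusted p under 0.05, with a median log2 fold change of 0.53 (10 to 12 higher with any library left out, and 2 lower without control replicate 2). Dnaja1, a cochaperone, stood at 178, 184 and 171 against 264, 314 and 280 CPM (0.69, standard error 0.10, adjusted p = 0.0661 from edgeR), and Hsp90aa1, the inducible HSP90, at 140, 190 and 128 against 243, 273 and 269 (0.78, adjusted p = 0.0926). Hsph1 and Stip1, other partners of HSP70 and HSP90, had 1.06 and 0.60, all without overlap. Of the 34 genes of the unfolded protein response 10 were higher and 1 lower (median 0.35), and 22 were higher without control replicate 2 and 6 without control replicate 1. Atf4, the transcription factor of the integrated stress response, had 0.45. Tuba1c and Tuba4a, which encode alpha-tubulins, and Amd1, a decarboxylase of polyamine synthesis, were among the 10 genes of smallest p. Tuba1c stood at 86.3, 94.8 and 76.9 against 173, 169 and 144 CPM (0.91, standard error 0.12, adjusted p = 0.0661), Tuba4a at 73.4, 64.6 and 66.2 against 120, 116 and 105 (0.74), and Amd1 at 36.9, 37.7 and 40.6 against 71.9, 79.5 and 63.9 (0.90). Egr1, an immediate early transcription factor, was the lower counterpart, at 13.3, 11.1 and 12.7 against 4.39, 5.87 and 5.57 CPM (-1.23, standard error 0.16, adjusted p = 0.0661), and Fos of the same list had -1.20. Of 23 immediate early genes 8 were lower and 1 higher, with a median of -0.40 (5 lower without control replicate 1 or shRNA replicate 1).

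**Figure D5:**
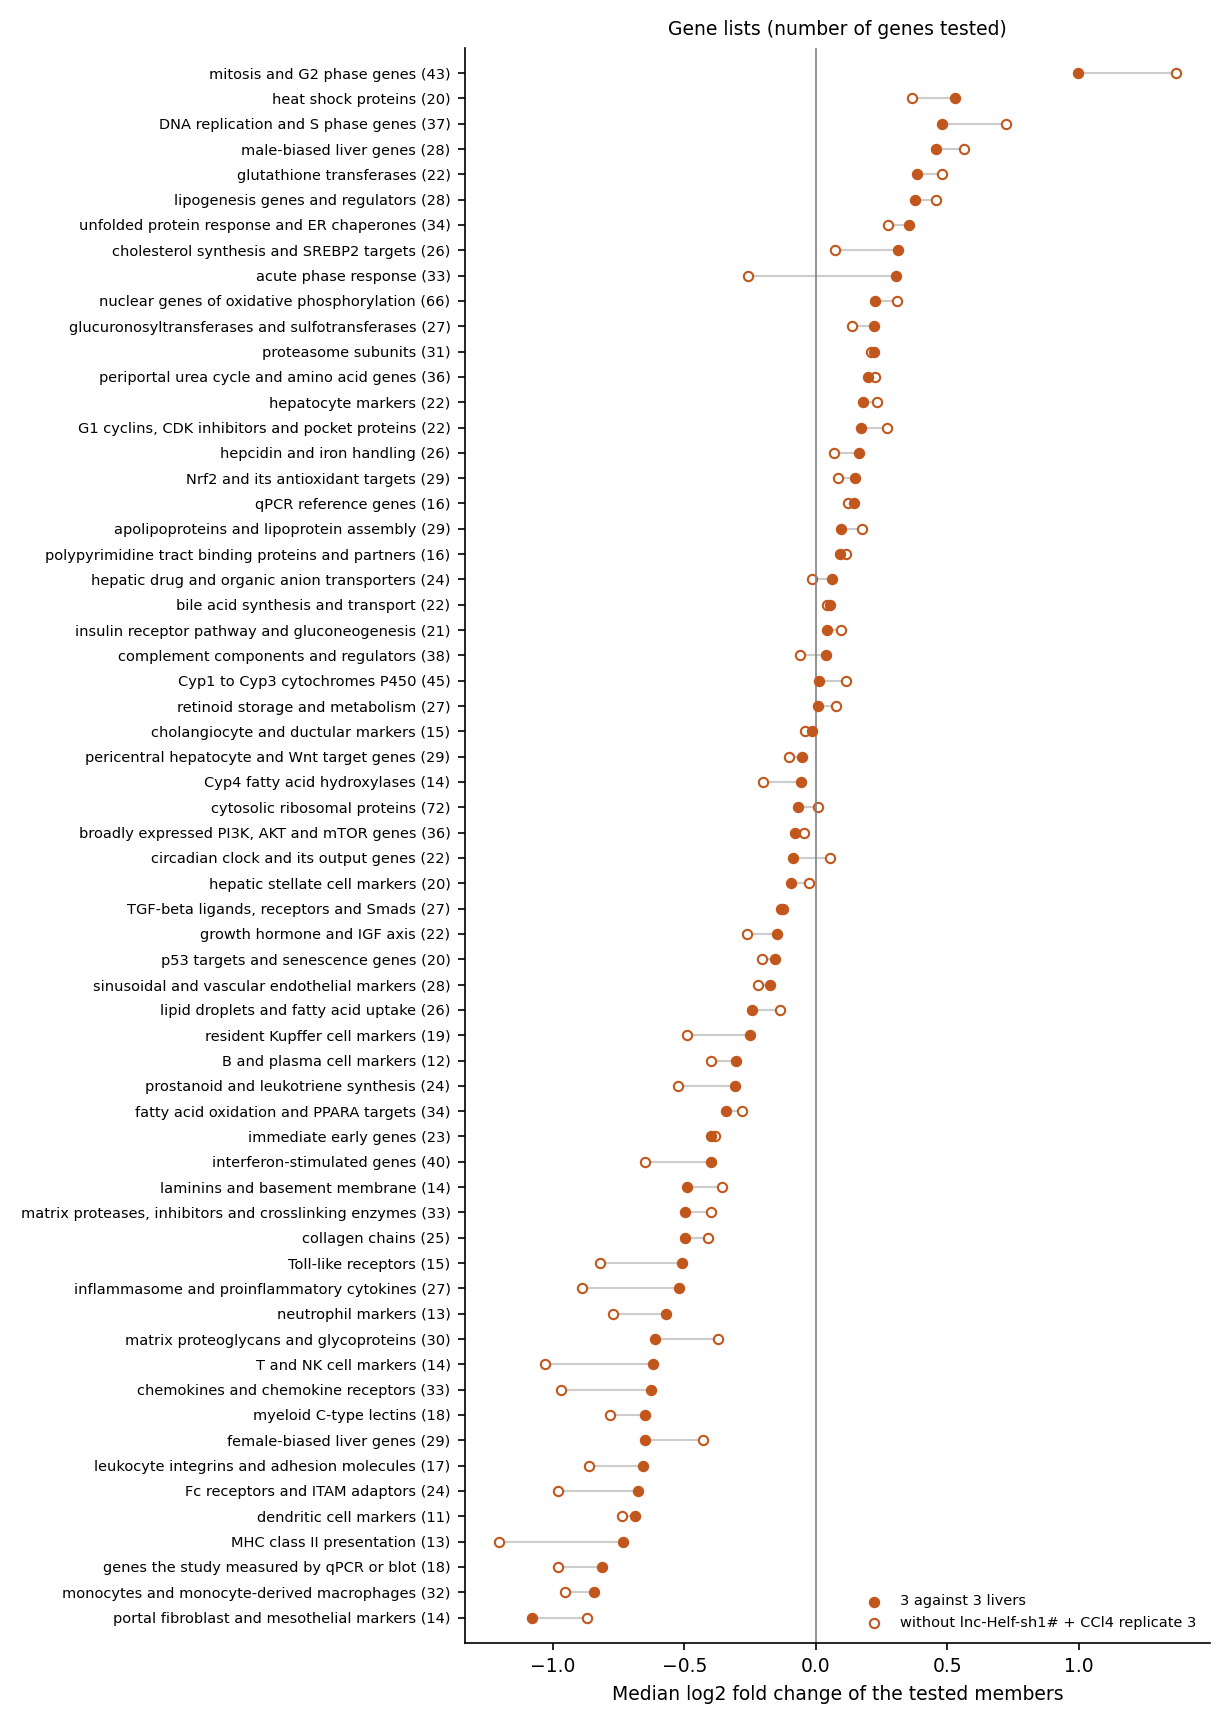
Median log2 fold change of the tested members of each gene list with at least 10 tested genes, lnc-Helf-sh1# + CCl4 against NC + CCl4, with all 6 livers (filled) and without lnc-Helf-sh1# + CCl4 replicate 3 (open). Portal fibroblast markers lie lowest (-1.08) and mitotic genes highest (1.00), and the acute phase list crosses 0 without that liver (0.30 to -0.26).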

How the data were processed

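Liver RNA of 6 mice, grouped by the submitters' labels, was analysed. The authors deposited RSEM expected counts (8.1% not whole, not normalized) and FPKM and TPM values that the authors normalized. FPKM served only in alternative tests, and TPM was not used. The submitters' processing notes name BWA, Bowtie2, RSEM and hg19, although the genes are mouse genes (17198 numbers found in RefSeq), and versions are not given in the sources used here. Date-like symbols were restored in 22 rows.

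After rounding, expected counts of the 6 libraries were fitted without covariates by edgeR 4.0.16 in R 4.3.3 (glmQLFit, glmQLFTest, filterByExpr with a minimum count of 10, TMM factors 0.96 to 1.045). P-values were adjusted by Benjamini-Hochberg over all genes tested. Each standard error was derived from a gene's fold change and its F statistic. The common biological coefficient of variation was 17.8%. Replicates of a group all differed beyond sampling noise. Alternatives were DESeq2 1.42.0, all 9 libraries in 1 fit, other normalizations and filters, limma 3.58.1 on log2 FPKM, the replicate block and leaving out each library. Counts of list members without each library were added after seeing the data. The tests were checked on simulated counts.

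The gene lists, tests and naming rules were chosen with earlier results of these data known. Named were Fmo genes, genes the study assayed, leukocyte PI3K subunits, the 10 smallest p, up to 12 extreme fold changes per direction (mean of at least 10 CPM, unadjusted p under 0.05, fold above 2, no overlap, no unnamed models) and, per list, the 4 smallest p and the gene with the most reads, and not all of these are printed. Under the rule on extreme fold changes, Gnat1, Rcan1 and Hdhd3 were also higher (log2 fold changes 1.17, 1.10 and 1.06). Some genes are not reported here.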

Additional observations from a re-analysis of the deposited data

How the results depend on the processing

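The number of genes past both limits (fold above 2 and p under 0.05 after adjustment) was 1 in edgeR, 0 with all 9 libraries in 1 fit, 0 with the replicate block, 14 with no filter on low counts, 207 in DESeq2 and 75 at an adjusted p under 0.1, and 0 to 258 with 1 library left out. At an unadjusted p, 62 genes were higher and 412 lower, against 41 higher with total counts only, 38 and 218 under the stricter filter, 11 and 97 on log2(FPKM + 1) and 22 higher on log2(FPKM + 0.1), with 34 to 179 higher and 293 to 682 lower on leaving out 1 library. Without a composition factor the median of all genes moved to -0.107 and 31 of the 67 list medians moved by more than the spread of the controls. As many moved on log2(FPKM + 0.1), with 32, and on log2(FPKM + 1), with 28, were near that count. Without shRNA replicate 3 the count was 32, and it was 7 to 19 without any other library and 0 to 5 in the remaining settings. Deviations of same-numbered livers from their group means correlated at -0.434 to -0.174. With 3 livers per group, such values cannot decide whether the numbers of the labels pair the livers. With the replicate block 42 genes were higher and 293 lower at an unadjusted p. Of 132 genes, the log2 fold change turned in 5. Alb was at -0.010 on both FPKM scales and ran from -0.024 (without shRNA replicate 1) to 0.33 with 1 library left out. C3 ran from -0.48 to 0.20, with 0.20 and 0.14 without shRNA replicates 1 and 2. Fmo4 was at -0.041 with total counts, -0.0699 on log2(FPKM + 1) and -0.0747 on log2(FPKM + 0.1), and ran from -0.025 (without shRNA replicate 2) to 0.18. Il1b ran from -0.995 to 0.27, with 0.17 without control replicate 2 and 0.24 and 0.27 without shRNA replicates 1 and 2. Pik3ap1 ran from -0.25 (without shRNA replicate 3) to 0.41. The cause of these differences was not tested. At 15967731 to 16816431 expected counts per library, genes of a few CPM, such as Tnf, rest on few reads.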

Other observations

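Hamp, which encodes the iron hormone hepcidin, stood at 492, 342 and 527 CPM in the control livers against 773, 719 and 1030 in the shRNA livers (log2 fold change 0.89, adjusted p = 0.104 from edgeR). Of 26 genes of hepcidin and iron handling 4 were higher and 1 lower at an unadjusted p under 0.05 (median 0.16). Id2 stood at 38.0, 43.1 and 48.3 against 75.2, 77.7 and 71.6 CPM (log2 fold change 0.80, standard error 0.11, adjusted p = 0.0661). Id3 overlapped, at 12.2, 15.9 and 26.4 against 33.9, 36.2 and 23.1 CPM (0.77, adjusted p = 0.179). Cyp8b1, the 12-alpha-hydroxylase of bile acid synthesis, was 237, 261 and 150 against 75.3, 141 and 73.0 CPM (-1.16, adjusted p = 0.118), whereas Abcb11, the bile salt export pump, had 0.65. The 22 genes of bile acid synthesis and transport had a median of 0.06, with 2 higher and 2 lower at an unadjusted p under 0.05. Glul, glutamine synthetase of the cells around the central vein, was 116, 80.2 and 91.6 against 42.3, 56.6 and 66.2 CPM (-0.80, adjusted p = 0.106). The pericentral list as a whole did not follow it, with 1 of 29 genes higher and 4 lower and a median of -0.05. Of 36 periportal genes 12 were higher and 1 lower (median 0.20). Of 66 nuclear genes of oxidative phosphorylation 20 were higher and none lower (median 0.22), 47 without lnc-Helf-sh1# + CCl4 replicate 3 and 5 to 11 without any other library.

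Retsat, a retinol saturase, stood at 409, 344 and 496 against 220, 246 and 188 CPM (log2 fold change -0.94, standard error 0.16, adjusted p = 0.0894 from edgeR). Cyp26b1, which clears retinoic acid, had -1.18. Of the 27 genes of retinoid storage and metabolism 4 were higher and 4 lower, with a median of 0.0092. Of 24 genes of prostanoid and leukotriene synthesis 8 were lower and 2 higher, with Ptgis, prostacyclin synthase, at 11.9, 9.95 and 21.7 against 5.92, 6.31 and 5.38 CPM (-1.31, adjusted p = 0.101). Alox5 had -2.18 (standard error 0.51) and rests on few reads, at 1.32, 0.633 and 1.54 against 0.127, 0.312 and 0.309 CPM. Of the clock genes, Cry2 was lower (35.2, 34.7 and 37.4 against 26, 24.7 and 24.9 CPM, -0.50, adjusted p = 0.0802) and Bhlhe40 higher (81.2, 106 and 92.9 against 150, 160 and 126, 0.64, adjusted p = 0.0976), while the 22 clock and output genes had a median of -0.09. Gapdh, a common qPCR reference gene, was higher without overlap, at 1720, 1590 and 1710 against 2820, 2300 and 1910 CPM (0.48, standard error 0.15, adjusted p = 0.144).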
